A study of Mus musculus with 8 samples.

Results

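CD1d is a cell surface molecule related to MHC class I that presents lipids, rather than peptides, to natural killer T (NKT) cells. It picks up a first lipid while it folds in the endoplasmic reticulum, travels to the plasma membrane, and is taken up again into late endosomes and lysosomes, where small lipid transfer proteins exchange that lipid for others. Macrophages both take up lipids and carry CD1d. The 7 genes described here are the pair of mouse CD1d genes (*Cd1d1* and *Cd1d2*), the precursor of the saposins (*Psap*), the GM2 activator (*Gm2a*), the lysosomal cholesterol carriers *Npc1* and *Npc2*, and the microsomal lipid transfer protein *Mttp*. They were chosen by name for these roles and were found by Ensembl gene ID among the 48795 genes of the expression tables.

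The libraries came from resting peritoneal macrophages (pMacs) of adult WT and CD1d-KO mice, 4 libraries of each genotype with the replicate numbers 1, 2, 3 and 5. The WT mice are given as C57BL/6 in the series' own description and as littermates of the CD1d-KO mice in the study. The study worked with 2 CD1d-KO lines, one with a floxed *Cd1d* allele deleted in every cell by PGK-Cre and the other the strain B6.129S6-Del(3Cd1d2-Cd1d1)1Sbp/J. Which of them gave these libraries is not given in the sources used here. Both deletions are in all cells and such mice lack NKT cells, so a difference between the genotypes need not arise in the macrophages. For some lipid metabolism genes the study reports lower levels by qPCR also in CD1d-KO pMacs taken from mixed bone marrow chimeras. Expression is given as normalized counts, which are RSEM expected counts scaled to the mean library size, or as TPM where genes are compared with each other, since TPM corrects for transcript length. A positive log2 fold change means more RNA in CD1d-KO pMacs. In these bulk libraries fewer cells of a type and less RNA per cell cannot be told apart.

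Each library held between 13698864 and 19059432 expected counts, and the replicate 1 libraries were the deepest of both genotypes. All 8 markers of large peritoneal macrophages were detected, and their summed normalized counts ran from 91110 to 95200 in WT and from 87390 to 100500 in CD1d-KO libraries. *Csf1r* and *Itgam* weighed most in this sum, with WT means of 39770 and 30890. *Timd4* and *Selp* were higher in CD1d-KO in 4 of 4 pairs, and no other of the 8 moved the same way in all pairs. Of all tested genes 20.7% did so. B cell transcripts were present in every library, with sums over 7 markers from 3084 to 8448 in WT and from 1958 to 14050 in CD1d-KO libraries. The sums over 8 markers of T, NK and NKT cells were 69.8 to 116 and 56.0 to 133, with *Ncr1* at 0 in all libraries. The 7 markers of dendritic cells and small peritoneal macrophages summed to 1117 to 1883 in WT and 994 to 2360 in CD1d-KO libraries, and the 8 of mast cells and eosinophils to 129 to 264 and 91.6 to 186. All 5 mesothelial markers stayed at or under 3 counts in every library. No tested gene of these marker lists was called between the genotypes, where edgeR called 0.0383% of all 13040 tested genes. Of the 8 T, NK and NKT cell markers 2 had enough reads to be tested, and of the 5 mesothelial markers 0.

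The targeted gene *Cd1d1* (ENSMUSG00000028076) spans positions 86995834 to 86999441 of chromosome 3 (GRCm38, minus strand). WT replicate 1 held 68.2 normalized counts of it, replicate 2 held 175, replicate 3 held 96.1 and replicate 5 held 141. CD1d-KO replicates 2, 3 and 5 held 1.14, 0 and 1.10, from 1, 0 and 1 read. The library labelled CD1d-KO replicate 1 had 60.6 normalized counts of *Cd1d1*. That library therefore goes against its label for the targeted gene, while all 4 WT libraries lay above all 4 libraries labelled CD1d-KO. It is kept under its label below, and the fitted log2 fold changes of the tested genes named below are given with and without replicate 1.

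The gene next to *Cd1d1* is its near copy *Cd1d2* (ENSMUSG00000041750), on the plus strand from 86986551 to 86989780, 6054 bases away. The annotation calls it a polymorphic pseudogene. Over 1007 aligned bases of coding sequence (1 annotated coding transcript of each gene in GENCODE M21) 975 were identical, or 96.8%, and 1 base in exon 4 of *Cd1d1* is missing from *Cd1d2*. The genes differ most in exon 3, which was 93.9% identical, and least in exons 4 to 6, which were 99.3%, 99.0% and 100% identical. The 120-base stretch with the most differences, 12 in all, is shown because it is where reads of the 2 genes can be separated. It lies in exon 3 at chr3:86998221-86998340 on the minus strand for *Cd1d1* and at chr3:86987553-86987672 on the plus strand for *Cd1d2* (GRCm38). Capitals mark the bases that differ.
Cd1d1: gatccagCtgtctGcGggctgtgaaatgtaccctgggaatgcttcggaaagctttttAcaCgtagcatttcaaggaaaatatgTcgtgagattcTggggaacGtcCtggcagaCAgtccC
Cd1d2: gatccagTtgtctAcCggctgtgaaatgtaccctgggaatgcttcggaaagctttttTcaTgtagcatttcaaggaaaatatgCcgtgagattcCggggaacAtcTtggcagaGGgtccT
In contrast, the longest run shared without a difference spans 245 bases of exons 4 and 5, and a read inside it fits both genes. It is shown because the 75-base reads of this study are shorter than it. In *Cd1d1* it lies within chr3:86996744-86997539 on the minus strand, and in *Cd1d2* within chr3:86988354-86989193 on the plus strand, with the intron left out of the sequence.
Cd1d1 and Cd1d2: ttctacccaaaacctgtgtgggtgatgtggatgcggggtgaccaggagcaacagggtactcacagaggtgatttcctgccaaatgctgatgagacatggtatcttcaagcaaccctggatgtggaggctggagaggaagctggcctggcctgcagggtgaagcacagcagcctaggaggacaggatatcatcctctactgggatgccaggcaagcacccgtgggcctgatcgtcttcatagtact

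Of all 75-base windows of the annotated transcripts, 364 were found in both genes. These were 14.2% of the 2565 windows of *Cd1d1* and 22.8% of the 1600 windows of *Cd1d2*. RSEM divides such reads between the genes, so the counts of the pair depend on each other. Even so, little was assigned to *Cd1d2*. Its expected counts were 2.75 in WT replicate 2, 1.21 in WT replicate 5 and 0 in the other 6 libraries. All 8 values are at or under a floor of 3 counts, so no fold change is given for *Cd1d2*. The name of a CD1d-KO strain of the study holds both genes in its deletion. If that strain was used, *Cd1d2* may be deleted in the CD1d-KO mice as well. It had too few reads for the main test, and with no filter on low counts edgeR gave an adjusted p of 0.932.

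Within pairs of the same replicate number, all 4 pairs had less *Cd1d1* on the CD1d-KO side, but by very different amounts. In pair 1 the ratio of CD1d-KO to WT was 0.89, with a 95% counting interval from 0.65 to 1.22 that includes 1 (exact, counting error only). In pair 2 WT was 153-fold higher (interval 27.1 to 6085) and in pair 5 it was 129-fold higher (22.7 to 5113). In pair 3, where the CD1d-KO library had no read, WT was at least 27.3-fold higher against a floor of 3 counts in that library, and its exact counting interval began at 21.7-fold. Thus 3 pairs showed loss of the transcript, and pair 1 showed no loss beyond counting error.

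The library labelled CD1d-KO replicate 1 reached 50.5% of the WT mean of 120.2 ± 47.4 normalized counts (SD, n = 4). It was below WT replicates 2, 3 and 5, with ratios of 0.346 (0.262 to 0.455), 0.631 (0.457 to 0.871) and 0.429 (0.321 to 0.571). It was 53.0-fold above CD1d-KO replicate 2 (9.25 to 2120), 55.2-fold above replicate 5 (9.62 to 2206) and at least 17.2-fold above replicate 3 against that floor (13.7-fold by the counting interval). RSEM's mean length of the *Cd1d1* transcripts in it was 1422 bases, beside 1046 to 1435 in the WT libraries, so that it lay within the WT range. The single reads of CD1d-KO replicates 2 and 5 were assigned to transcripts of 667 and 1946 bases.

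In the edgeR quasi-likelihood test over all 4 pairs, the log2 fold change of *Cd1d1* was −3.42 (SE 1.04, 95% interval −5.83 to −1.004), with an unadjusted p of 0.0117. It did not pass the thresholds (adjusted p = 0.233 by the Benjamini-Hochberg method). Without replicate 1 the edgeR log2 fold change was −7.27 (SE 0.403, adjusted p = 6.85e-04). DESeq2 over all 4 pairs gave −6.35 (adjusted p = 0.00271). Over all alternatives run on *Cd1d1* the adjusted p ranged from 6.04e-04 to 0.997. In all of these settings *Cd1d1* was lower in CD1d-KO libraries, with a fitted log2 fold change between −7.27 and −2.72.

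**Figure D1:**
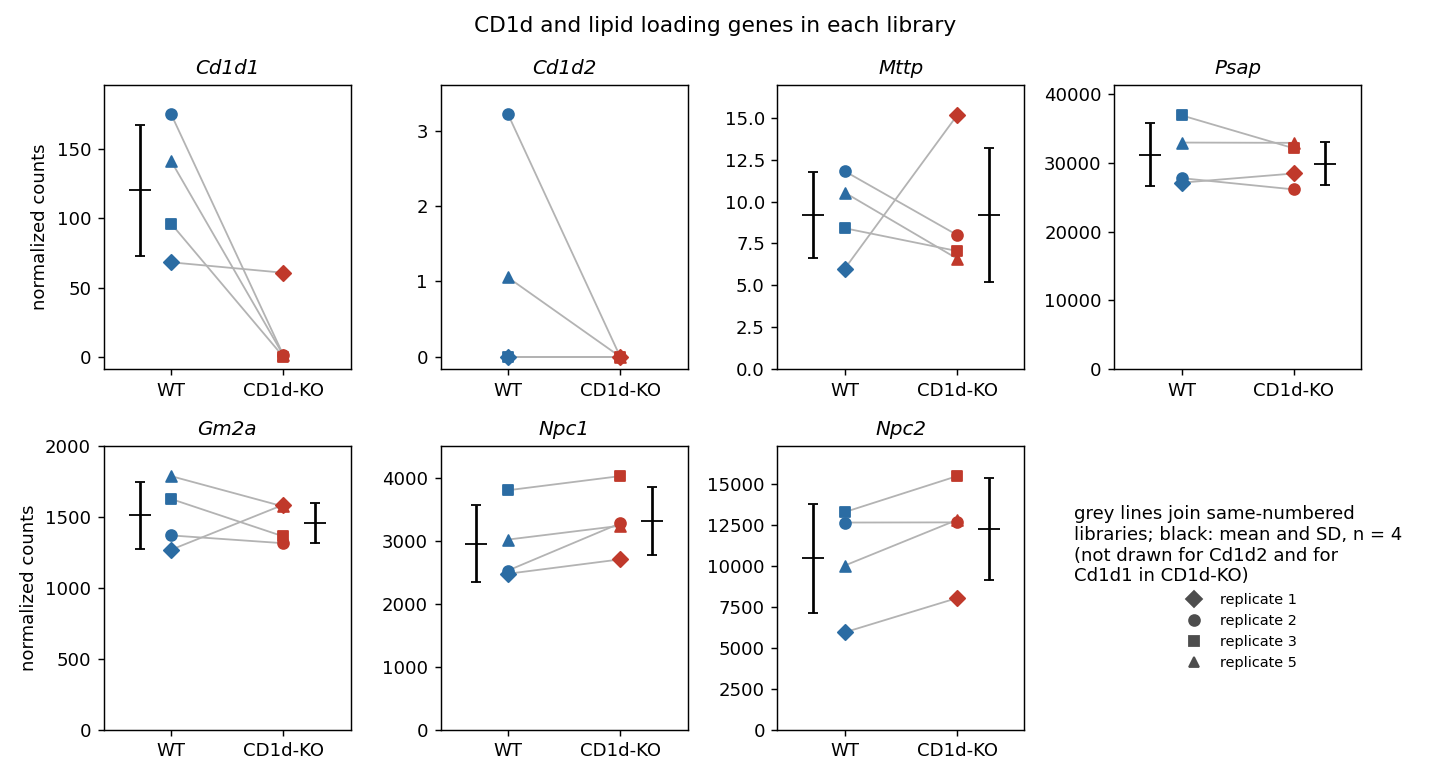
Normalized counts (vertical axes, a separate scale per gene) of the 7 genes in each of the 4 WT (blue) and 4 CD1d-KO (red) libraries. Grey lines join libraries of the same replicate number. Black bars give the mean and SD (n = 4) and are not drawn for *Cd1d2* or for *Cd1d1* in CD1d-KO libraries. *Cd1d1* is at 1.14 or less in 3 CD1d-KO libraries and at 60.6 in the library labelled CD1d-KO replicate 1, which also holds the highest *Mttp* value, 15.2.

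The study's thresholds, a fold change above 1.5 with an adjusted p under 0.01, were used for calls. Of the 7 genes, 5 had enough reads to be tested by edgeR and 0 were called, where 0.0383% of all 13040 tested genes were called. At an unadjusted p under 0.05, 2 of the 5 passed in edgeR, *Cd1d1* and *Npc2*, against 12.4% of all tested genes. Without replicate 1 edgeR called *Cd1d1* alone of the 5 (0.054% of all tested genes), and DESeq2 over all pairs also called *Cd1d1* alone (1.02% of the 10398 genes it gave an adjusted p). *Cd1d1* was also the only one of the 5 with no overlap between the genotypes, as 1.96% of all tested genes had.

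*Psap* encodes prosaposin, which lysosomal proteases cut into saposins A, B, C and D, small proteins that lift sphingolipids out of membranes for their hydrolases and onto CD1d. The gene (ENSMUSG00000004207) lies on the plus strand of chromosome 10 from 60277627 to 60302597. It had 27110, 27770, 36910 and 32950 normalized counts in WT replicates 1, 2, 3 and 5, and 28450, 26130, 32110 and 32910 in the CD1d-KO libraries of the same numbers. The groups overlapped, and in 3 of 4 pairs CD1d-KO was the lower one. The means were 31190 ± 4626 in WT and 29900 ± 3178 in CD1d-KO pMacs (SD, n = 4 each). The edgeR log2 fold change was −0.06 (95% interval −0.25 to 0.14, adjusted p = 0.845), so the thresholds were not passed and the interval excludes a 1.5-fold change in either direction. Without replicate 1 it was −0.10 (adjusted p = 0.8285, range over the alternatives 0.796 to 0.997).

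*Gm2a* encodes the GM2 activator protein, which presents the ganglioside GM2 to hexosaminidase and can also move lipids to and from CD1d. The gene (ENSMUSG00000000594) lies on the plus strand of chromosome 11 from 55098115 to 55113029. It had 1268, 1369, 1626 and 1787 normalized counts in WT replicates 1, 2, 3 and 5, and 1585, 1314, 1362 and 1573 in CD1d-KO libraries. The CD1d-KO values all fell within the WT range. *Gm2a* was higher in the CD1d-KO library of pair 1 (ratio 1.25) and lower in pairs 2, 3 and 5 (0.96, 0.84 and 0.88). The edgeR log2 fold change was −0.04 (interval −0.28 to 0.19, adjusted p = 0.913). Its sign depended on the libraries used, from −0.17 without replicate 1 to 0.03 without replicate 3, and in no setting did *Gm2a* pass the threshold (adjusted p 0.622 to 0.997).

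NPC1 and NPC2 act in sequence: soluble NPC2 takes cholesterol from the lumen of the lysosome and hands it to NPC1 in the membrane, which passes it out. NPC2 has also been tied to the loading of glycolipids on CD1d. *Npc2* (ENSMUSG00000021242) lies on the minus strand of chromosome 12 from 84754562 to 84773152. It had 5955, 12670, 13310 and 10040 normalized counts in WT replicates 1, 2, 3 and 5, and 8050, 12680, 15510 and 12830 in CD1d-KO libraries. Replicate 1 was the lowest library of both genotypes, and the CD1d-KO library was the higher one in 4 of 4 pairs, with ratios of 1.35, 1.001, 1.17 and 1.28. In pair 2 the difference was within counting error (interval 0.975 to 1.03). The means were 10490 ± 3341 and 12270 ± 3099 (SD, n = 4), so the difference between them was smaller than the spread within each genotype.

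The edgeR log2 fold change of *Npc2* was 0.25 (SE 0.0914, interval 0.04 to 0.47) with an unadjusted p of 0.0254 and an adjusted p of 0.319. It was 0.19 without replicate 1 (interval −0.06 to 0.44, adjusted p = 0.647) and 0.34 without replicate 2 (adjusted p = 0.131). Over all alternatives the adjusted p ran from 0.131 to 0.997 and the fold change stayed positive. *Npc2* therefore did not pass the threshold in any setting. Its interval over all pairs excludes a 1.5-fold change with the replicate block, but not without the block, where it ran from 0.762-fold to 1.79-fold.

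*Npc1* (ENSMUSG00000024413) lies on the minus strand of chromosome 18 from 12189692 to 12236400 and overlaps *Rmc1* (432 to 807 counts per library) and *Gm15956* (3.12 to 6.72 counts) on the other strand. Whether strand was used in counting is not stated, so reads of these genes may be mixed. *Npc1* had 2481, 2532, 3810 and 3025 normalized counts in WT replicates 1, 2, 3 and 5, and 2710, 3284, 4035 and 3245 in CD1d-KO libraries. As with *Npc2*, the groups overlapped and the CD1d-KO library was higher in 4 of 4 pairs, with ratios of 1.09, 1.297, 1.06 and 1.07. The edgeR log2 fold change was 0.17 (interval −0.01 to 0.35, unadjusted p = 0.0560, adjusted p = 0.415), and without replicate 1 it was 0.19 (adjusted p = 0.630, range over the alternatives 0.377 to 0.997). Of the 5 tested genes 3 moved the same way in all 4 pairs (*Cd1d1* down, *Npc1* and *Npc2* up), where 20.7% of all tested genes did so.

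A marker list differed in the same direction as the NPC genes. The sum over 5 neutrophil markers was 2577, 4492, 4740 and 3721 normalized counts in WT replicates 1, 2, 3 and 5, and 4095, 5290, 6195 and 4354 in CD1d-KO libraries, higher in CD1d-KO in 4 of 4 pairs. The defining markers *S100a9*, *Ly6g* and *Cxcr2* were at or under 3 counts in all libraries, so the list does not show that neutrophils were present. Nearly all of the sum was *Csf3r*, with a small part from *S100a8*. *Csf3r* had 2526, 4439, 4696 and 3674 normalized counts in WT replicates 1, 2, 3 and 5, and 4011, 5205, 6112 and 4261 in CD1d-KO libraries. *S100a8* had 44.5 to 51.6 normalized counts in WT and 81.1 to 90.1 in CD1d-KO libraries. Its groups did not overlap, as was so for 1.96% of all tested genes. The part of these markers in the *Npc1* and *Npc2* values was not tested.

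*Mttp* encodes the microsomal triglyceride transfer protein, which loads lipid on apolipoprotein B in liver and gut and on newly made CD1d in the endoplasmic reticulum. The gene (ENSMUSG00000028158) lies on the minus strand of chromosome 3 from 138089854 to 138144968, 51.1 Mb from *Cd1d1*, and overlaps *Trmt10a* (19.7 to 80.0 counts) and *Gm43691* (0 counts) on the other strand. *Mttp* had between 6.12 and 20 expected counts per library, too few for the filter on low counts, so it was not part of the main test. In WT replicates 1, 2, 3 and 5 these came to 5.995, 11.8, 8.41 and 10.5 normalized counts, against 15.2, 8.01, 7.05 and 6.60 in CD1d-KO libraries. The library labelled CD1d-KO replicate 1 was the highest of the 8 and its WT partner the lowest, while the other 3 pairs were lower in CD1d-KO. The ratio in pair 1 was 2.53 (counting interval 1.07 to 6.64), and in pairs 2, 3 and 5 it was 0.68, 0.84 and 0.63. With no filter edgeR gave a log2 fold change of 0.01 (adjusted p = 1) with an interval from 0.466-fold to 2.16-fold, so that a change within these bounds was not detectable at this depth. The value was 0.11 without replicate 3 (adjusted p = 0.967) and −0.02 with DESeq2, which gave no adjusted p.

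**Figure D2:**
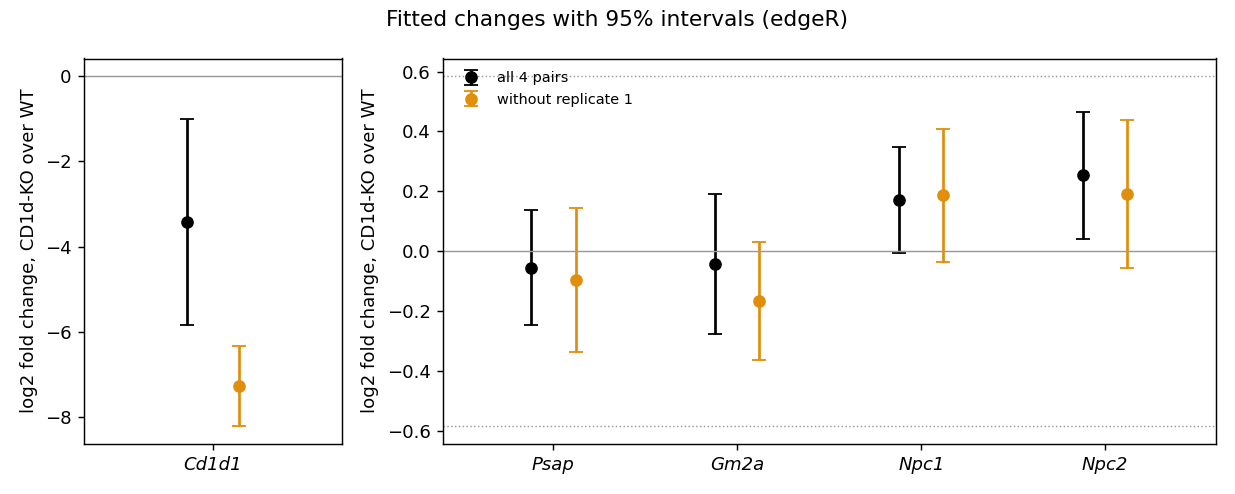
Fitted log2 fold change of CD1d-KO over WT (vertical axes, edgeR) with 95% intervals for the 5 tested genes, over all 4 pairs (black) and without replicate 1 (orange), with dotted lines at a 1.5-fold change. *Cd1d1* moves from −3.42 to −7.27 when replicate 1 is left out, while the intervals of the other 4 genes stay within the dotted lines in both fits.

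Apart from *Cd1d1*, levels per length separated the genes by far more than genotype did. In WT pMacs *Psap* had 1259 ± 160 TPM (SD, n = 4), rank 73 of all 48795 genes. *Npc2* followed with 326 ± 80.7 TPM (rank 344), *Npc1* with 59.1 ± 10.8 (rank 1965) and *Gm2a* with 37.6 ± 5.17 (rank 2984). *Cd1d1* itself stood lower, at 10.7 ± 4.72 TPM (rank 6897), *Mttp* at 0.393 ± 0.0759 and *Cd1d2* at 0.0775.

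The order *Psap*, *Npc2*, *Npc1*, *Gm2a*, *Cd1d1* held between neighbours in 8 of 8 libraries. The WT ranges of neighbouring genes did not overlap, although the highest *Gm2a* value (44.1 TPM) came close to the lowest of *Npc1* (46.4 TPM). Within a library *Npc1* exceeded *Gm2a* by 1.34 to 2.48 times, *Npc2* exceeded *Npc1* by 3.75 to 8.03 times, and *Psap* exceeded *Npc2* by 2.63 to 5.81 times. *Cd1d1* exceeded *Mttp* in 5 of 8 libraries, the exceptions being CD1d-KO replicates 2, 3 and 5, where *Cd1d1* was at 0.18, 0 and 0.06 TPM. In the library labelled CD1d-KO replicate 1 it was at 5.12 TPM, beside 6.78 to 17.0 TPM in WT. In CD1d-KO pMacs the other genes kept their places, with *Psap* at 1214 ± 183 TPM, *Npc2* at 384 ± 70.3, *Npc1* at 66.0 ± 7.18 and *Gm2a* at 36.8 ± 7.34 (SD, n = 4). For scale, *B2m*, the light chain of CD1d and of MHC class I, had 3271 ± 594 TPM in WT pMacs. *Cd74*, the invariant chain that also guides CD1d to endosomes, had 1015 ± 359, and *P4hb*, the partner subunit of the *Mttp* product, had 714 ± 99.5.

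**Figure D3:**
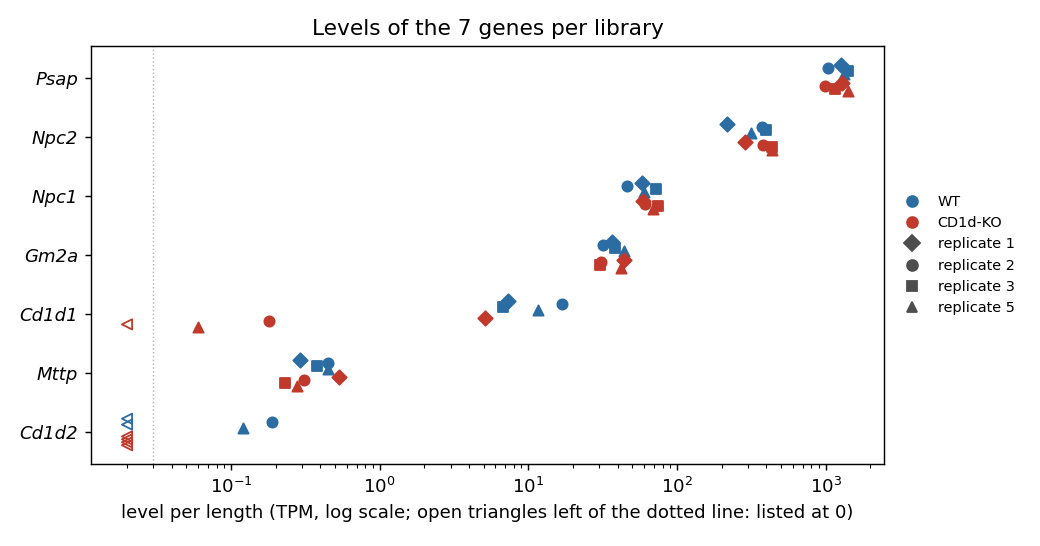
Level per length of each gene (horizontal axis, TPM on a log scale) in each WT (blue) and CD1d-KO (red) library, with marker shapes for replicate numbers and open triangles at the left for genes listed at 0. The genes form separate bands from *Psap* at 992 to 1418 TPM down to *Mttp* at 0.23 to 0.53 TPM, and *Cd1d1* alone leaves its band, in 3 CD1d-KO libraries.

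Around these genes, 5 lists of 55 genes with roles in the same pathway were examined, of which 52 could be tested (*Gpr37*, *Gpr37l1* and *Lef1* had too few reads). edgeR called 0 of the 52 and DESeq2 also called 0. At an unadjusted p under 0.05 edgeR had 5 higher and 6 lower in CD1d-KO pMacs, beside 958 higher and 653 lower of all 13040 genes. Values that passed at this level alone are given here as values and not as changes. The median log2 fold change of the 52 was −0.00022 over all pairs and −0.022 without replicate 1, beside 0.0047 and −0.0031 for all tested genes. Of all 13040 tested genes 6650 had a positive and 6390 a negative fold change.

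The 14 presentation partners are the light chain, chaperones of folding, the invariant chain and its proteases, and the AP-2 and AP-3 adaptors that carry CD1d to lysosomes. None of them had an unadjusted p under 0.05 in edgeR, 6 had a positive and 8 a negative fold change, and the median was −0.01. *B2m* had the smallest p. It had 16410, 27770, 31330 and 27170 normalized counts in WT replicates 1, 2, 3 and 5, and 22390, 25670, 36210 and 32370 in CD1d-KO libraries, higher in 3 of 4 pairs. Its log2 fold change was 0.20 (SE 0.104, edgeR adjusted p = 0.487), and 0.12 without replicate 1. The adaptor subunits *Ap3m1* (log2 fold change −0.13, adjusted p = 0.512) and *Ap2m1* (−0.10, adjusted p = 0.633) came next, at −0.18 and −0.1003 without replicate 1. *Cd74* was at 0.13 (adjusted p = 0.823) and, without replicate 1, at 0.0097.

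The 12 lysosomal glycolipid hydrolases are the enzymes that saposins and the GM2 activator serve, and that trim antigens before presentation. Of these, 9 had a positive and 3 a negative fold change, with a median of 0.07 over all pairs and 0.01 without replicate 1. *Gla*, the α-galactosidase that removes terminal galactose from glycolipids, had 666, 1189, 2290 and 1095 normalized counts in WT replicates 1, 2, 3 and 5, and 911, 1346, 2459 and 1681 in CD1d-KO libraries. It was higher in 4 of 4 pairs with overlapping groups (log2 fold change 0.34, SE 0.0959, edgeR adjusted p = 0.212, range over the alternatives 0.0519 to 0.997), and without replicate 1 its log2 fold change was 0.298. *Arsa*, which with saposin B degrades sulfatide, was also higher in 4 of 4 pairs (0.30, adjusted p = 0.299, and 0.29 without replicate 1). *Glb1*, the β-galactosidase, was at 0.15 (adjusted p = 0.568) and at 0.043 without replicate 1.

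The list of prosaposin sorting receptors and lysosomal lipid partners split in both directions, with 5 of 10 tested genes above 0 and 5 below. *Sort1* encodes sortilin, a receptor that carries prosaposin and the GM2 activator to lysosomes. It had 2103, 1354, 886 and 1877 normalized counts in WT replicates 1, 2, 3 and 5, and 1949, 1153, 730 and 1173 in CD1d-KO libraries, lower in 4 of 4 pairs (log2 fold change −0.32, SE 0.0981, edgeR adjusted p = 0.233, and −0.3996 without replicate 1). *Scarb2*, the receptor of glucocerebrosidase, had 1928, 3049, 3259 and 2730 in WT and 3399, 3012, 4677 and 3442 in CD1d-KO libraries (0.41, SE 0.127, edgeR adjusted p = 0.233, and 0.28 without replicate 1). It was higher in 3 of 4 pairs. *Grn*, whose product progranulin binds prosaposin, was higher in 4 of 4 pairs (0.21, adjusted p = 0.319, and 0.18 without replicate 1). Named after their values were seen, the acid lipase gene *Lipa* (−0.32, adjusted p = 0.359, and −0.33 without replicate 1) and the mannose 6-phosphate receptor gene *M6pr* (−0.18, adjusted p = 0.358, and −0.18 without replicate 1) were lower in 4 of 4 pairs, and these 5 genes are the ones of the list with an unadjusted p under 0.05. Of all tested genes 12.4% passed that level.

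The lipid delivery list, 6 genes for carriers and receptors that bring lipids to the endosome together with *Faah* and *P4hb*, had the median farthest from 0. It was −0.23 over all pairs and −0.1975 without replicate 1, with 4 genes below 0 and 2 above, and 3 of the 6 at an unadjusted p under 0.05, all lower in CD1d-KO pMacs. At that level 653 of all 13040 tested genes were lower and 958 higher. *Apoe*, the secreted lipid carrier that delivers lipid antigens for CD1d, was the sixth most abundant transcript per length in WT pMacs. It had 251600, 260800, 228800 and 214600 normalized counts in WT replicates 1, 2, 3 and 5, and 121500, 203600, 173400 and 153700 in CD1d-KO libraries. All 4 WT libraries lay above all 4 CD1d-KO libraries, and the library labelled CD1d-KO replicate 1 was the lowest of the 8. Of all tested genes 1.96% had no overlap between the genotypes in either direction. The edgeR log2 fold change of *Apoe* was −0.57 (SE 0.135, adjusted p = 0.148), with an unadjusted p of 0.00314, and −0.41 without replicate 1. With DESeq2 it was −0.57 (adjusted p = 7.54e-04), past the threshold on p and under the 1.5-fold threshold, and its adjusted p ranged from 3.48e-04 to 0.997 over the alternatives.

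*Scarb1*, a receptor that takes up lipid from HDL, was lower in 4 of 4 pairs with overlapping groups. It had 424, 447, 175 and 391 normalized counts in WT replicates 1, 2, 3 and 5, and 336, 402, 130 and 213 in CD1d-KO libraries (log2 fold change −0.44, edgeR adjusted p = 0.207, range over the alternatives 0.0323 to 0.997, and −0.48 without replicate 1). The scavenger receptor gene *Cd36* had 26090, 18090, 19070 and 17890 normalized counts in WT replicates 1, 2, 3 and 5, and 17130, 17060, 11830 and 15460 in CD1d-KO libraries (−0.398, edgeR adjusted p = 0.226, −0.33 without replicate 1). Like *Apoe* it had no overlap between the genotypes, as was so for 1.96% of all tested genes, but the gap was narrow (17890 in WT against 17130). By qPCR the study reports comparable *Cd36* mRNA in WT and CD1d-KO pMacs. WT replicate 1 was the highest of the 8 *Cd36* values. None of these passed the thresholds. *P4hb* was at −0.07 (adjusted p = 0.774), and at −0.07 without replicate 1.

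Of the 10 tested transcription factors tied to the *Cd1d* genes or to lysosomal genes, 4 had a positive and 6 a negative fold change (median −0.01). *Elf1*, an Ets factor, was higher in 4 of 4 pairs (log2 fold change 0.20, edgeR adjusted p = 0.358, and 0.17 without replicate 1). *Mitf* was at −0.19 (adjusted p = 0.410) and at −0.15 without replicate 1. *Pparg*, a lipid-sensing nuclear receptor, had 82.4, 46.2, 54.1 and 61.1 normalized counts in WT replicates 1, 2, 3 and 5, and 52.3, 57.2, 18.8 and 37.4 in CD1d-KO libraries (−0.60, adjusted p = 0.450, and −0.57 without replicate 1), lower in 3 of 4 pairs. Over the 52 genes of these lists, 5 were higher and 8 lower in all 4 pairs, beside 1384 and 1314 of all 13040.

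**Figure D4:**
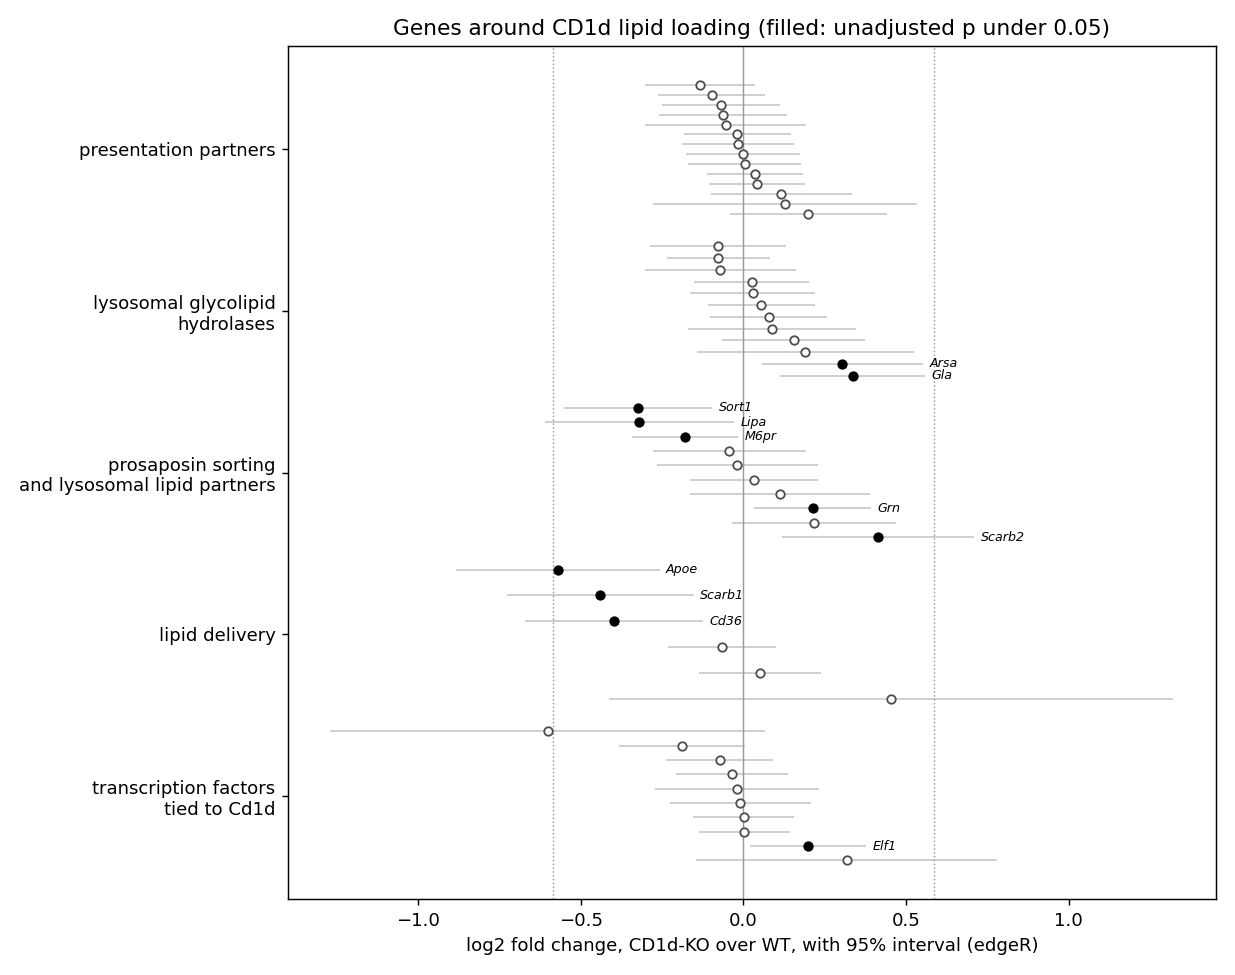
Log2 fold change of CD1d-KO over WT with 95% intervals (horizontal axis, edgeR, all 4 pairs) for the 52 tested genes of 5 lists, filled where the unadjusted p is under 0.05, with dotted lines at a 1.5-fold change. No gene passed the thresholds, and the lipid delivery list has 3 filled points, all below 0.

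The genes whose levels ran most like those of each tested gene were sought among 9940 genes with at least 50 normalized counts on average, by Pearson's r of log2 CPM over the 8 libraries. These values are descriptions over libraries that also share genotype and replicate number. Closest to *Cd1d1* were *Ugp2* (r = 0.977), *Rps3a1* (0.952) and *Rprd1a* (0.943). *Rps3a1* encodes a ribosomal protein and lies 0.853 Mb from *Cd1d1* on chromosome 3. It had 9906, 10010, 11810 and 9912 normalized counts in WT replicates 1, 2, 3 and 5, and 6315, 2608, 3302 and 2339 in CD1d-KO libraries. The library labelled CD1d-KO replicate 1 stood between the WT libraries and the other CD1d-KO libraries for this gene, as it did for *Cd1d1*. *Rps3a1*, *Ugp2* and *Rprd1a* were picked for their likeness to *Cd1d1* over these same libraries. Their values in that library therefore follow from the choice and are no separate sign about it. *Rps3a1* has near-identical copies elsewhere in the genome, so that its counts may depend on how reads were divided among them, which was not tested. *Ugp2* had 984 to 1037 normalized counts in WT, 987 in the library labelled CD1d-KO replicate 1 and 911 to 919 in the remaining 3. *Rprd1a* had 132 to 141, 139.5 and 92.8 to 106.

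*Npc2* ran closest to *Cmtr1* (r = 0.995), *Znfx1* (0.994) and *Mlkl* (0.994), all of which were lowest in WT replicate 1, as *Npc2* was. This too follows from how they were picked. *Znfx1* for example had 3939, 15150, 20960 and 10400 normalized counts in WT replicates 1, 2, 3 and 5, and 6983, 17660, 24910 and 18370 in CD1d-KO libraries. *Psap* ran closest to *Aim2* (0.980), *Ubox5* (0.970) and *Tmem256* (0.962), *Npc1* to *Sirt2* (0.973), *Rnpepl1* (0.969) and *Esyt1* (0.967), and *Gm2a* to *Slc16a7* (0.918), *Ddx55* (0.915) and *Eif4e3* (0.901).

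B cells also carry CD1d, so the *Cd1d1* values were set beside the B cell markers. Summed over 7 markers these were 7446, 3084, 6552 and 8448 normalized counts in WT replicates 1, 2, 3 and 5, and 9138, 1958, 5650 and 14050 in CD1d-KO libraries. WT replicate 2 had the highest *Cd1d1* and the lowest B cell sum of the WT libraries. CD1d-KO replicate 5 had the highest B cell sum of all 8 and 1 read of *Cd1d1*. The deletions are in all cells, B cells included, so that library cannot show how much *Cd1d1* B cells add. The library labelled CD1d-KO replicate 1 was second in B cell markers. What part B cells have in the *Cd1d1* level of any library was not tested.

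**Figure D5:**
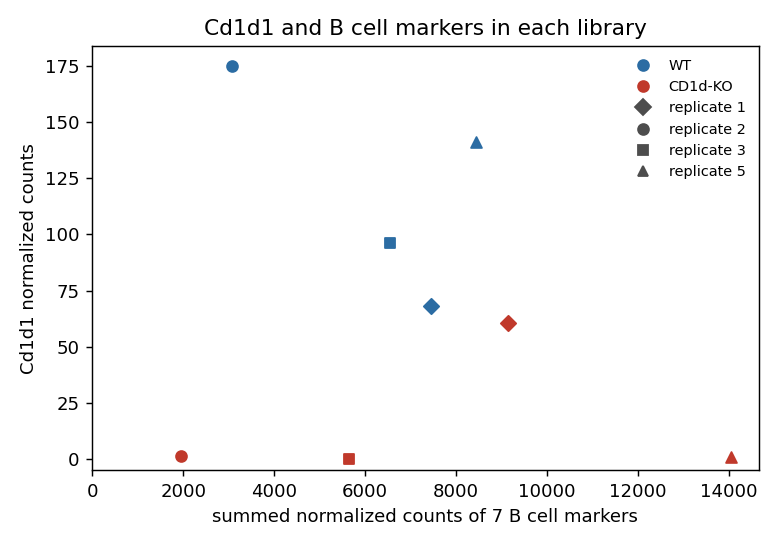
*Cd1d1* normalized counts (vertical axis) against the summed normalized counts of 7 B cell markers (horizontal axis) in each WT (blue) and CD1d-KO (red) library, with marker shapes for replicate numbers. The WT library with the most *Cd1d1*, 175, has the fewest B cell transcripts of the WT libraries, 3084. The CD1d-KO library with the most B cell transcripts, 14050, has 1.10 normalized counts of *Cd1d1*, where B cells carry the deletion too.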

How the data were processed

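Polyadenylated RNA of pMacs was read from 1 end (75 bases) by the authors, trimmed with Cutadapt, aligned to GRCm38 with STAR (2.5.2a) and quantified with RSEM (1.3.0). The deposited expected counts are estimated reads per gene, need not be whole and are not normalized. The deposited TPM values, also from RSEM, are corrected for transcript length and scaled to a fixed total by the authors. The deposited transcript lengths are means weighted by isoform, and FPKM was not used. Reads that fit more than 1 gene are shared out by RSEM, and 27.88% to 29.86% of expressed genes per library had a count that was not whole. Libraries held 13698864 to 19059432 expected counts.

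Gene symbols and positions came from GENCODE M21 (GRCm38), which held 99.26% of the gene IDs. Expected counts were rounded, filtered with filterByExpr, scaled by TMM and tested with the quasi-likelihood test of edgeR (4.0.16, R 4.3.3) with genotype and replicate number in the model, as the study modelled them. P-values were adjusted over 13040 genes by the Benjamini-Hochberg method, and calls needed a fold change above 1.5 with an adjusted p under 0.01. Libraries of the same number deviated together (r = 0.487, 0.387, 0.505 and 0.207 for numbers 1, 2, 3 and 5) and were taken as pairs, although number 5 correlated as highly with a library of another number (0.22). Replicates are separate mice by the study's methods, and no 2 libraries agreed within sampling noise. Ratios of single libraries have exact conditional (Clopper-Pearson) intervals that cover counting error only, and a library at 0 was set to a floor of 3 counts. Alternatives used DESeq2 (1.42.0), limma (3.58.1) on log2(TPM + 1) with a mean TPM of at least 1, other scalings and filters, unrounded counts, no block, and each pair left out. Scripts were tested on simulated data.

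The 7 genes, the 5 lists around them and the marker lists were chosen with earlier results of these data known, and 1 gene of the lists is not reported here. Named are the 7 genes, the 3 genes with the smallest p of each list (none was called), *B2m*, *Cd74* and *P4hb* for scale, and the 3 genes nearest in pattern to each tested gene. *Lipa* and *M6pr* were added after their values were seen. Coding sequences of *Cd1d1* and *Cd1d2* were aligned with Biopython (1.88) from GENCODE M21 transcripts. The authors' own comparisons of these libraries were not used.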

Additional observations from a re-analysis of the deposited data

Results flagged for a closer look

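Outliers were sought among 24 of the genes named above, in 48 groups of 4 libraries. A Dixon test at the 95% level was used, which chance alone passes in about 1 of 20 groups. By this test 4 values stood apart from the other libraries of their genotype. *Cd1d1* in the library labelled CD1d-KO replicate 1 was at 60.65 normalized counts, beside 0 to 1.144 in the other CD1d-KO libraries. *Mttp* in the same library was at 15.16 normalized counts, beside 6.596 to 8.008. *Ap2m1*, a subunit of the AP-2 adaptor, was at 3777 normalized counts in CD1d-KO replicate 2, beside 2971 to 3102. *Cd36* in WT replicate 1 was at 26090 normalized counts, beside 17890 to 19070 in the other WT libraries. The remaining genes named above were not put to this test, and some also had a value apart. *M6pr* was at 5266 in CD1d-KO replicate 2, beside 4342 to 4481. *Rps3a1* was at 11810 in WT replicate 3, beside 9906 to 10010. *Ugp2* was at 987 in the library labelled CD1d-KO replicate 1, beside 911 to 919, but it had been picked for its likeness to *Cd1d1* over these libraries.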

How the results depend on the processing

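Of the 7 genes, 0 were called over all 4 pairs with edgeR, and 1, *Cd1d1*, was called with DESeq2, with no filter on low counts and without replicate 1, so that leaving out 1 pair gave 0 to 1. The log2 fold change of *Cd1d1* was −6.35 with DESeq2 and −3.42 with no filter, both past the threshold, and −7.27 to −2.81 when 1 pair was left out, with only the fit without replicate 1 past it. Without the replicate block it was −2.77 (adjusted p = 0.997), and *Cd1d1* was not called with or without the block, which changed no call among these genes. *Gm2a* turned from −0.04 to 0.0284 without replicate 3 and to 0.0046 without replicate 5, over a range from −0.17 to 0.0284. *Psap*, *Npc1* and *Npc2* kept their direction and stayed outside the thresholds in each of 12 alternatives, and 0 of the 52 genes around them were called in each of 14. Over all genes the count of calls was 5 with edgeR, 3 without the block, 106 with DESeq2, 236 with no filter, and 7, 22, 3 and 3 without replicates 1, 2, 3 and 5. A filter of at least 10 counts in every library leaves *Cd1d1* out of the test. *Cd1d2* and *Mttp* were limited by depth, with at most 3 and 20 counts per library.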
